A study of Mus musculus with 117 samples.

Results

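Epithelial-mesenchymal transition factors and cadherins are 9 genes here: the transcription factors Snai1, Snai2, Zeb1, Zeb2, Twist1 and Prrx1, the intermediate filament gene Vim, and the cadherins Cdh1 and Cdh2. They were taken by name from 17097 annotated genes, with 1 probe set for each gene, the one annotated to that gene alone with the highest mean over 117 arrays. All 9 had such a probe set and all 9 passed the filter on low values in each fit. A probe set is a group of array probes against 1 transcript, and its values are log2 signals, so a difference of 1 is a doubling of the signal.

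The study compared tumours that arose in mice carrying conditional Prom1 mutations with cells of normal mouse tissues. Prom1 encodes prominin 1 (CD133), a membrane protein used to mark stem cells. All mice were of the C57BL/6 strain. Total RNA of each sample was measured on an Affymetrix array. The tumours were 10 prostatic adenocarcinomas, 14 bronchial papillary adenomas, 13 hepatocellular carcinomas, 11 gastric adenocarcinomas, 9 uterine adenocarcinomas, 6 skin squamous cell carcinomas and 3 B-cell lymphomas, frozen as pieces of tissue. The normal samples were dissociated tissues sorted with antibody-coated magnetic beads into Prom1-positive and Prom1-negative cells. They held 3 and 5 samples from prostate, 3 and 7 from lung, 3 and 5 from intestine, 4 and 7 from liver, 3 and 4 from stomach, and 4 and 3 from uterus, with the Prom1-positive number given first. The labels give no genotype for single tumours, no agent and no age. They do not say that samples of a group came from separate mice. The p-values therefore rest on the spread between samples, which may not be that between mice. In each fit that spread is taken within groups and shared by all groups.

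Epithelial cells hold together through E-cadherin, the product of Cdh1, while many mesenchymal cells carry N-cadherin, the product of Cdh2, and fill their cytoskeleton with vimentin. Snail (Snai1), Slug (Snai2) and the ZEB proteins are zinc finger repressors that bind E-box sequences in the Cdh1 promoter, and Twist1, a basic helix-loop-helix factor, and Prrx1, a homeobox factor, also promote the change from epithelial to mesenchymal form. The same genes are active in fibroblasts and other stromal cells, Zeb2 and Vim also in blood-derived cells, and Cdh2 in hepatocytes.

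Sequences are shown for the promoters of Twist1 and Prrx1, which were lower in Prom1-positive cells of both prostate and uterus, of Vim, the member with the largest difference in gastric tumours, and of Snai1, whose window held an E-box. The sequences are from RefSeq on GRCm38.p6, read in the direction of transcription, with 250 bases before the start and 50 after it. Capitals mark CACCTG, an E-box bound by Snail and ZEB proteins, or TATAAA, the TATA box, each searched on both strands.

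Twist1, chr12:33957421-33957720 (+): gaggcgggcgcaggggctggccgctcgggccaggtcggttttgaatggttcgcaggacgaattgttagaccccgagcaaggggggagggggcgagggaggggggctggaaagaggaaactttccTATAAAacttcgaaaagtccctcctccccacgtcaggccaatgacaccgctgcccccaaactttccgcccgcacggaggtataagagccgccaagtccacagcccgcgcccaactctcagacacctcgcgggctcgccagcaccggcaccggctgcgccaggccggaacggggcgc

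Prrx1, chr1:163313601-163313900 (-): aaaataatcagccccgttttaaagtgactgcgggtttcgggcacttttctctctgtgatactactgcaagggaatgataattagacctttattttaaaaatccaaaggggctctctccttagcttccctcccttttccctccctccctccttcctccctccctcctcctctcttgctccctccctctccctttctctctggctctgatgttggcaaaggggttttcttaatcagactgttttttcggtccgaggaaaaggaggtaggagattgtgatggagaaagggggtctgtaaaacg

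Vim, chr2:13574061-13574360 (+): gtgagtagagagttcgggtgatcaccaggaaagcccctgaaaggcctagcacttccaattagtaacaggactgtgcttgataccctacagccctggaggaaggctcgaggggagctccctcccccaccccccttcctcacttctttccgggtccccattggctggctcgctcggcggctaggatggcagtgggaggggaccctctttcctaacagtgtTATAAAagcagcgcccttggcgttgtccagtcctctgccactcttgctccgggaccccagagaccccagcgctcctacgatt

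Snai1, chr2:167537945-167538244 (+): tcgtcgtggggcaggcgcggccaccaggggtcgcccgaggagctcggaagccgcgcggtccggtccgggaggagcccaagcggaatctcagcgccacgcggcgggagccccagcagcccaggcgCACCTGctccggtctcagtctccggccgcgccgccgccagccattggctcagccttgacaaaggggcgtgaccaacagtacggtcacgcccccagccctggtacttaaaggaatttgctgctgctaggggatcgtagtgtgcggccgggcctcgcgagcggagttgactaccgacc

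TATAAA began 126 bases before the start of Twist1 and 32 bases before that of Vim, and CACCTG began 126 bases before the start of Snai1. The Prrx1 window held neither, and the 4 windows of Zeb2 held neither. Of 32851 promoter windows in the table, 20.2% held CACCTG and 13.6% held TATAAA. These matches describe the letters of the windows alone.

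The array medians lay between 3.63 and 4.01, and the upper quartile of 6 arrays, all of sorted cells, was under 6. Snai1 was above the median of its array in 12 of 117 arrays, so its values lie mostly in the range of unexpressed probe sets. Twist1 was above it in 44, Cdh2 in 47, Snai2 in 71 and Prrx1 in 89 arrays, and Cdh1, Zeb1 and Vim in 113, 115 and 116. The sorted gene itself, Prom1, was higher in Prom1-positive than in Prom1-negative cells of prostate by 1.76, stomach by 1.65 and uterus by 1.46. The stomach call ended without Prom1-negative sample 1 or any Prom1-positive sample (adjusted p of 0.0529 to 0.0871), and the uterus call without Prom1-negative sample 1 or 2 or Prom1-positive sample 1 (0.0846 to 0.133). In lung (0.01), intestine (0.53) and liver (0.23) the difference did not pass the test, and in liver its signal was near or below the array medians. Organ markers were high in the sorted cells of their own organ, such as Alb at 13.31 to 13.76 in liver, Gkn1 at 12.50 to 13.57 in stomach and Sftpc at 11.63 to 13.58 in lung. Some sorted samples also held another organ's marker. Lung Prom1-positive sample 2 had the prostate gene Pbsn at 7.37, and prostate Prom1-positive sample 1 and Prom1-negative sample 3 had Sftpc at 7.86 and 8.72. Intestine Prom1-negative sample 2 had Gkn1 at 12.5, and the other intestine samples had it at 3.14 to 10.7. Alb was at 7.66 to 8.40 in stomach Prom1-positive cells and at 7.19 in lung Prom1-negative sample 6. These are examples, not a full list. The refits left out each sample, 1 at a time. In 5 tumours an organ marker stood apart. Uterine adenocarcinoma 6 had the liver gene Alb at 13.3, and hepatocellular carcinomas 1 and 8 had the lung surfactant gene Sftpc at 12.6 and 11.5. Gastric adenocarcinomas 1 and 2 had Gkn1 and Vil1 below their array medians. These 2 also had Pgr, a uterus marker here, at 8.94 and 7.69, against 2.43 to 3.37 in the other gastric tumours. Atp4b, a parietal cell gene, was low in all gastric tumours (3.77 to 4.86). By the rule of both own markers low, uterine adenocarcinomas 1, 2 and 3 also stood apart, with Pgr at 2.54 to 2.82 and Hoxa11 at 2.58 to 3.31, and prostatic adenocarcinoma 1 had its own marker Pbsn at 2.49. Results for tumours are given for all samples, and again without the first 5 or without all 9, both chosen after seeing the data, where a call changed.

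In normal tissues the members fell into different orders. For each gene the Prom1-positive and Prom1-negative means of a tissue were averaged, and the tissues were compared with limma, with Benjamini-Hochberg adjustment and a threshold of 0.05. Of the 9 members, 8 differed among the 6 tissues, all but Snai1, against 90.1% of all genes. Cdh1 signal was 10.98 in stomach, 10.49 in intestine, 9.47 in uterus and 9.35 in prostate, with no difference between neighbours in that order. It was lower in liver (7.40) and lung (7.12), which did not differ from each other. Cdh2 stood at 7.27 in liver and between 2.30 and 3.79 in the other 5 tissues, whose neighbours did not differ.

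The transcription factors did not share 1 order. Twist1 signal was highest in uterus (5.92), then in prostate (4.58), and lay between 2.66 and 3.35 in the other 4 tissues. Prrx1 was highest in uterus (8.06), followed by prostate (6.34), lung (5.91) and intestine (5.86), and was lowest in stomach (3.07) and liver (2.82). Snai2 was highest in uterus too (6.01), with lung, liver and prostate between 3.99 and 4.47 and stomach and intestine at 3.16 and 2.98. Zeb1 was highest in lung (9.59), with liver, uterus and prostate between 8.37 and 8.61, and stomach and intestine at 4.19 and 4.17. Zeb2 had its highest signals in uterus (8.70) and lung (8.52), which did not differ, and its lowest in intestine (3.55) and stomach (3.48). Vim was at 12.49 in lung, 12.28 in uterus and 11.50 in prostate, 9.14 in liver, and 6.38 and 5.85 in intestine and stomach.

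Set against the mean of the other 5 tissues, stomach cells had 7 members lower and Cdh1 higher (2.21), so 8 members were called, against 50.6% of all genes. Vim was lower there by 4.51, Zeb1 by 3.65, Zeb2 by 3.38 and Prrx1 by 2.73. In intestine all 9 members were called, against 57.3% of all genes, with Cdh1 (1.63) and Prrx1 (0.62) higher and the other 7 lower. The Prrx1 call there ended without Prom1-positive sample 1 (0.41, adjusted p = 0.165), and the value with Prom1-negative cells alone was -0.0080. The Snai1 call ended without Prom1-positive sample 2 or 3 or Prom1-negative sample 1 or 5 (adjusted p of 0.0503 to 0.148). Uterus had 6 members higher, against 26.5% of all genes called higher, namely Prrx1 (3.26), Vim (3.21), Zeb2 (2.88), Twist1 (2.58), Snai2 (2.25) and Zeb1 (1.45). In liver Cdh2 (4.22) and Zeb1 (1.66) were higher and Prrx1 (-3.02), Cdh1 (-2.08) and Twist1 (-0.75) lower, against 58.4% of all genes. Lung had 6 members called (53.3% of all genes), among them Vim (3.46), Zeb1 (2.83) and Zeb2 (2.66) higher and Cdh1 (-2.42) lower. In prostate 5 were higher (23% of all genes were called higher), led by Vim (2.27) and Zeb1 (1.37).

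**Figure D1:**
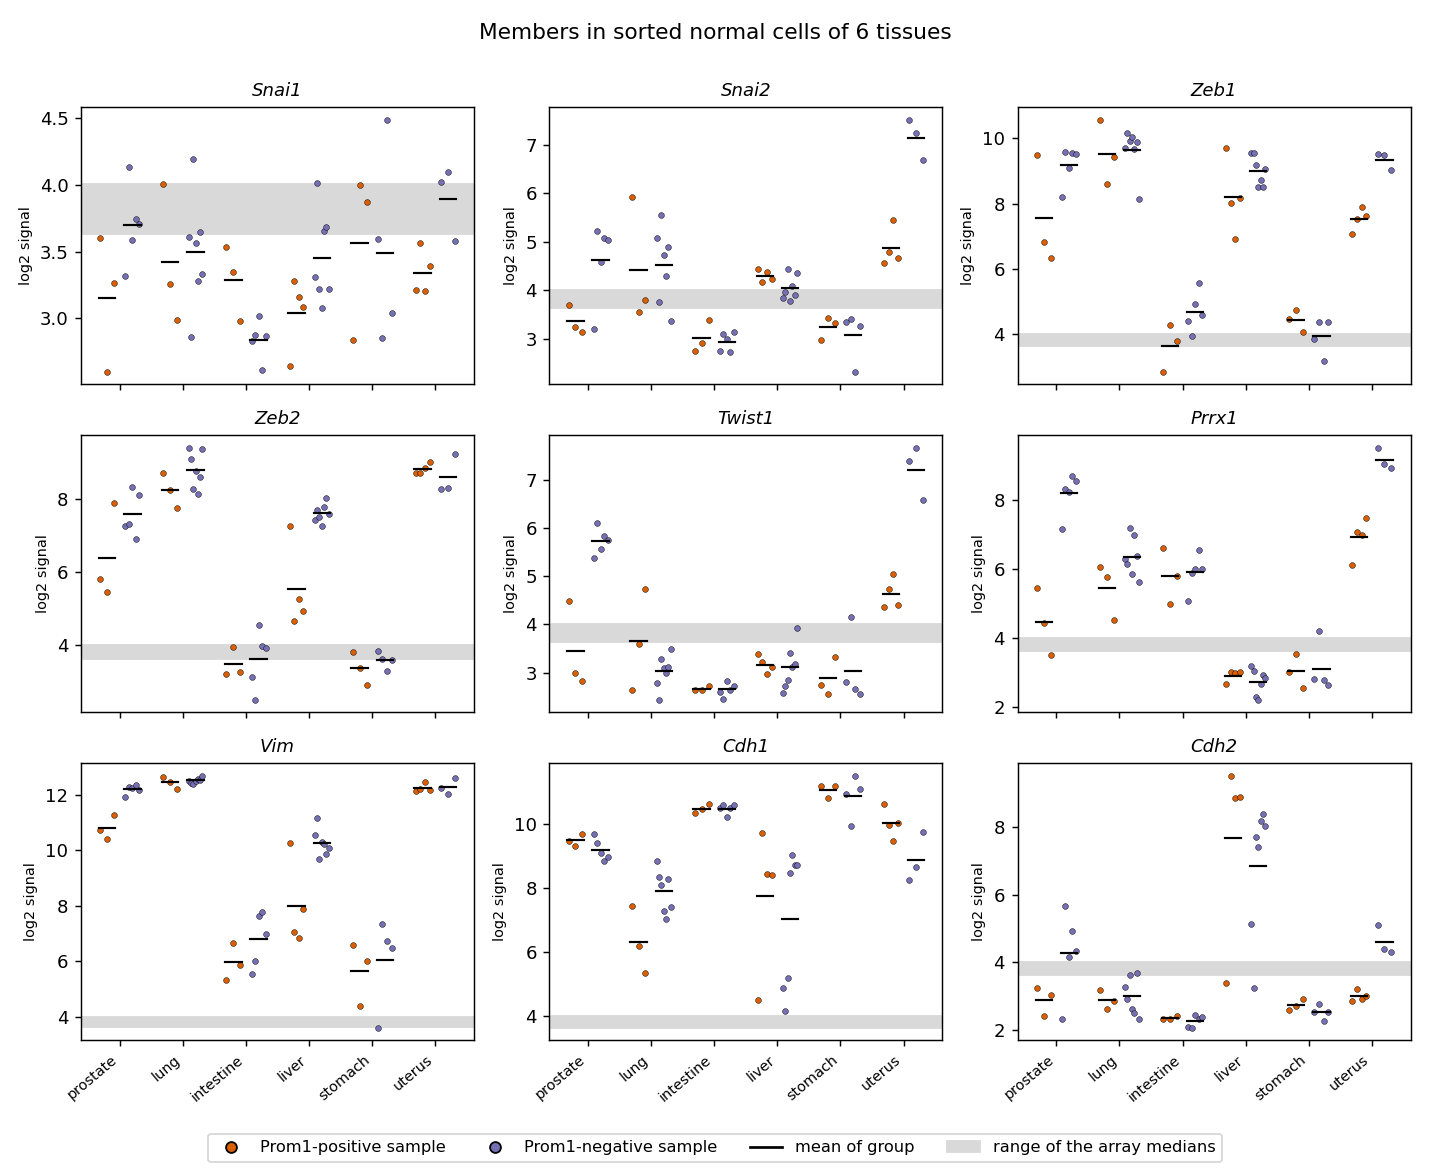
Log2 signal (vertical axes) of each member in sorted normal cells of 6 tissues (horizontal axis), 1 point for each sample, Prom1-positive left of Prom1-negative, with group means as bars and the range of the array medians in grey. Prom1-positive points of Twist1 and Prrx1 lie below the Prom1-negative points in prostate and uterus, and Cdh2 is highest in liver.

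Prom1-positive cells had lower signals of 6 members than Prom1-negative cells over the mean of 6 tissues, and none was higher. In this comparison 8.56% of all genes were called lower. Prrx1 was lower by 1.15 (SE 0.17, adjusted p = 2.62e-06) and Twist1 by 0.72 (SE 0.14, adjusted p = 0.000337). Zeb1 was lower by 0.83 (SE 0.21, adjusted p = 0.00539), Vim by 0.83 (SE 0.23, adjusted p = 0.0104), Zeb2 by 0.66 (SE 0.18, adjusted p = 0.00986) and Snai2 by 0.53 (SE 0.16, adjusted p = 0.0244). Cdh1 differed by 0.13 (95% interval -0.53 to 0.78, adjusted p = 0.837), Cdh2 by -0.33 (adjusted p = 0.562) and Snai1 by -0.18 (adjusted p = 0.346). The median over the 9 members was -0.66, and over all genes 0.02. The Snai2 call ended without lung Prom1-positive sample 2 (-0.45, adjusted p = 0.0602) or sample 4 (-0.47, adjusted p = 0.053). Zeb2 was -0.36 (adjusted p = 0.111) with the mean of its probe sets, and with neighbouring sample codes as a block both Zeb2 (adjusted p = 0.06) and Vim (0.0807) were no longer called. The mean covers unlike tissues: the difference between sorted fractions varied among tissues for Twist1 (adjusted p = 2.31e-06), Prrx1 (3.06e-06), Snai2 (0.00231) and Zeb2 (0.0226), 4 of 9 members against 21.2% of all genes. The Zeb2 result was lost without liver Prom1-positive sample 3, 4 or 5 (adjusted p up to 0.094).

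Markers of other cells moved in the same comparison. Of 15 fibroblast markers that entered the fit, 14 were lower in Prom1-positive cells and none higher, with a median difference of -1.03. Of 14 macrophage markers 7 were higher and none lower (median 0.77), and of 14 T and NK cell markers 12 were lower and none higher (median -1.68). The mixed cell content of the fractions and its part in the members' differences was not tested. In a sorted or whole-tissue sample, fewer cells of a type and less RNA for each cell cannot be told apart.

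In prostate, 4 members were lower in Prom1-positive cells, against 5.98% of all genes. Prrx1 had signals of 5.45, 4.43 and 3.50 in Prom1-positive cells, against 7.18, 8.35, 8.25, 8.70 and 8.58 in Prom1-negative cells. The Prom1-positive samples were all below the lowest Prom1-negative sample, a difference of -3.75 (SE 0.42, adjusted p = 4.63e-09). Twist1 had 4.48, 3.0 and 2.83 in Prom1-positive cells, against 5.37, 6.10, 5.55, 5.83 and 5.75 in Prom1-negative cells. These did not overlap either, with a difference of -2.28 (SE 0.35, adjusted p = 6.16e-06). The 2 Prom1-positive samples with the lowest Twist1 signals lay below the array medians.

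Zeb1 in prostate was 9.49, 6.84 and 6.34 in Prom1-positive cells and 8.21, 9.58, 9.10, 9.54 and 9.52 in Prom1-negative cells. Prom1-positive sample 1 lay among the Prom1-negative samples, and the difference was -1.63 (SE 0.52, adjusted p = 0.0378). Snai2 was 3.7, 3.24 and 3.14 in Prom1-positive cells and 3.21, 5.21, 4.59, 5.08 and 5.04 in Prom1-negative cells, where sample 1 was as low as the Prom1-positive ones. Its difference was -1.27 (SE 0.40, adjusted p = 0.0381). Each of these calls ended when any 1 of Prom1-positive samples 2 and 3 or Prom1-negative samples 2 to 5 was left out, with adjusted p of 0.0555 to 0.346 for Zeb1 and 0.0578 to 0.163 for Snai2. Without Prom1-positive sample 3 the Zeb1 difference was -1.02. Zeb2 (-1.19, adjusted p = 0.0913) was called when that sample was left out (-1.95, adjusted p = 0.00475).

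Vim was 10.73, 10.42 and 11.26 in Prom1-positive prostate cells, against 11.92, 12.29, 12.26, 12.35 and 12.19 in Prom1-negative cells. The fractions did not overlap, but the difference of -1.40 did not pass limma's test (adjusted p = 0.128). That test uses a spread for each gene shared by all sorted groups. The SD of Vim was 0.43 and 0.17 in these prostate fractions and up to 1.67 in other groups (stomach Prom1-negative cells). Cdh1 was 9.47, 9.31 and 9.71 in Prom1-positive cells and 9.68, 9.41, 9.11, 8.84 and 8.98 in Prom1-negative cells, a difference of 0.29 (adjusted p = 0.913). Cdh2 was at 2.41 to 3.24 in Prom1-positive cells and 2.31 to 5.68 in Prom1-negative cells (-1.38, adjusted p = 0.379). In the same samples 11 of 15 fibroblast markers were lower (median -3.20), led by the matrix genes Mfap5 (-4.95) and Lum (-4.93). Their mean log2 level was 5.19 to 7.22 in Prom1-positive and 7.88 to 9.20 in Prom1-negative samples. Of 13 other transition transcription factors that entered the fit, 4 were lower and none higher: Foxc1 (-2.04), Twist2 (-1.65), Prrx2 (-1.58) and Foxc2 (-1.18). Of the factors that keep the epithelial state, Elf5 (2.33), Elf3 (1.45) and Grhl2 (1.29) were higher. Endothelial markers were lower for 7 of 15, at 4.61 to 4.90 in Prom1-positive and 5.30 to 7.50 in Prom1-negative samples. T and NK cell markers were lower for 9 of 14, at 3.88 to 3.93 in Prom1-positive and 5.66 to 6.67 in Prom1-negative samples. The part of these cells in the members' differences was not tested. The Gapdh 3' minus 5' probe set difference, a measure of RNA quality on the log2 scale, was 0.93 to 1.03 in Prom1-positive and 0.51 to 0.82 in Prom1-negative samples, and the same 4 members were called with it as a covariate.

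In uterus, 4 members were also lower in Prom1-positive cells, against 5.64% of all genes. Twist1 was 4.35, 4.73, 5.04 and 4.40 in Prom1-positive cells and 7.38, 7.66 and 6.58 in Prom1-negative cells. The groups did not overlap, and the difference was -2.57 (SE 0.37, adjusted p = 2.52e-06). Snai2 was 4.57, 4.79, 5.44 and 4.66 in Prom1-positive cells and 7.52, 7.24 and 6.68 in Prom1-negative cells. It did not overlap and was lower by 2.28 (SE 0.42, adjusted p = 0.000146). Prrx1 was 6.13, 7.10, 7.01 and 7.49 in Prom1-positive cells, against 9.53, 9.07 and 8.95 in Prom1-negative cells, with a difference of -2.25 (SE 0.44, adjusted p = 0.000274) and no overlap. Zeb1 was 7.07, 7.54, 7.89 and 7.61 in Prom1-positive cells and 9.53, 9.47 and 9.05 in Prom1-negative cells. It also did not overlap, with a difference of -1.82 (SE 0.54, adjusted p = 0.0204). That call ended without Prom1-negative sample 1 or 2 or Prom1-positive sample 1 (adjusted p of 0.0724 to 0.0965).

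Zeb2 did not share that direction in the uterus, at 8.70, 8.70, 8.84 and 9.02 in Prom1-positive cells and 8.26, 8.29 and 9.22 in Prom1-negative cells (0.23, not called). Vim was within 12.16 to 12.47 in Prom1-positive cells and 12.03 to 12.63 in Prom1-negative cells. Cdh1 was 10.64, 9.98, 9.48 and 10.03 in Prom1-positive cells and 8.27, 8.67 and 9.75 in Prom1-negative cells. The fractions overlapped in 1 Prom1-negative sample, and the difference of 1.14 did not pass the test (adjusted p = 0.543). Cdh2 was 2.85, 3.21, 2.91 and 2.99 in Prom1-positive cells, against 5.09, 4.38 and 4.31 in Prom1-negative cells. There was no overlap and no call by limma (-1.60, adjusted p = 0.313), whose spread for a gene is shared by all sorted groups. The SD of Cdh2 was 0.16 and 0.43 in these uterus fractions. In the liver fractions it was 2.87 and 1.94, so the lack of a call does not reflect the uterus samples alone. In these samples 9 of 15 fibroblast markers were lower (median -1.62), and 12 of 14 macrophage markers were higher (median 3.62). The fibroblast list stood at 8.18 to 9.09 in Prom1-positive and 10.18 to 10.46 in Prom1-negative samples, and the macrophage list at 10.63 to 11.06 and 7.27 to 7.88 in the same order. Epithelial adhesion genes were higher for 4 of 17 and lower for none (median 1.18). The part of these cells in the members' differences was not tested.

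In liver, Zeb2 and Vim were lower in Prom1-positive cells, against 16.5% of all genes. Vim was 10.25, 7.06, 6.84 and 7.89 in Prom1-positive cells and 9.68, 10.25 and 11.19 (lowest, median, highest of 7) in Prom1-negative cells. Prom1-positive sample 2, the first of the values above, lay at the Prom1-negative median, and the other 3 lay below every Prom1-negative sample. The difference was -2.26 (SE 0.49, adjusted p = 0.000638). Zeb2 was 7.25, 4.65, 5.27 and 4.94 in Prom1-positive cells and 7.26, 7.58 and 8.03 in Prom1-negative cells, a difference of -2.09 (SE 0.38, adjusted p = 9.83e-05). Macrophage markers were lower for 11 of 14 (median -2.53) and endothelial markers for 11 of 15 (median -1.89). Sample 2 stood apart in both lists, with 9.69 for macrophage markers, against 9.87 to 10.61 in Prom1-negative cells. Their part in the Zeb2 and Vim differences was not tested. The arrays differed too: the Gapdh 3' minus 5' difference was 1.11 to 1.2 in Prom1-positive and 0.36 to 0.98 in Prom1-negative samples, and the upper quartile 5.96 to 6.02 in Prom1-positive and 6.08 to 6.41 in Prom1-negative samples. With the Gapdh difference as a covariate, Vim was lower by 2.38 (adjusted p = 0.00166) and Zeb2 by 1.89 (adjusted p = 0.00143).

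The same sample stood apart in the cadherins. Cdh2 was 3.39 in Prom1-positive sample 2 and 9.52, 8.87 and 8.89 in the other 3, against 5.13, 3.22, 7.70, 7.40, 8.18, 8.40 and 8.03 in Prom1-negative samples 1 to 7. Cdh1 was 4.50 in sample 2 and 9.71, 8.45 and 8.41 in the other 3, against 4.87, 4.16, 5.20, 8.49, 9.05, 8.74 and 8.74 in Prom1-negative samples 1 to 7. For Cdh1, Prom1-negative samples 1 to 3 were low like Prom1-positive sample 2, and Prom1-negative samples 4 to 7 lay among the other 3 Prom1-positive samples. Neither was called with all samples (Cdh2 0.80, adjusted p = 0.49; Cdh1 0.73, adjusted p = 0.52). Without sample 2, Cdh2 was higher by 2.23 (adjusted p = 0.00364), Cdh1 by 1.82 (adjusted p = 0.03) and Zeb1 lower by 1.31 (adjusted p = 0.0257); the low Prom1-negative samples stay in these values.

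In lung, intestine and stomach none of the members was called with limma. Across all genes 1.51%, 0.199% and 3.17% were called in those tissues, and 1346, 571 and 2303 genes had an unadjusted p under 0.05. In lung, Cdh1 was 7.43, 6.18 and 5.36 in Prom1-positive cells and 7.04, 8.10 and 8.85 (lowest, median, highest of 7) in Prom1-negative cells. These overlapped in 1 Prom1-positive sample (-1.58, adjusted p = 0.498). In stomach, Cdh1 was 11.20, 10.83 and 11.20 in Prom1-positive cells and 10.95, 9.96, 11.52 and 11.11 in Prom1-negative cells. In intestine it was between 10.35 and 10.65 in Prom1-positive cells and between 10.22 and 10.62 in Prom1-negative cells.

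**Figure D2:**
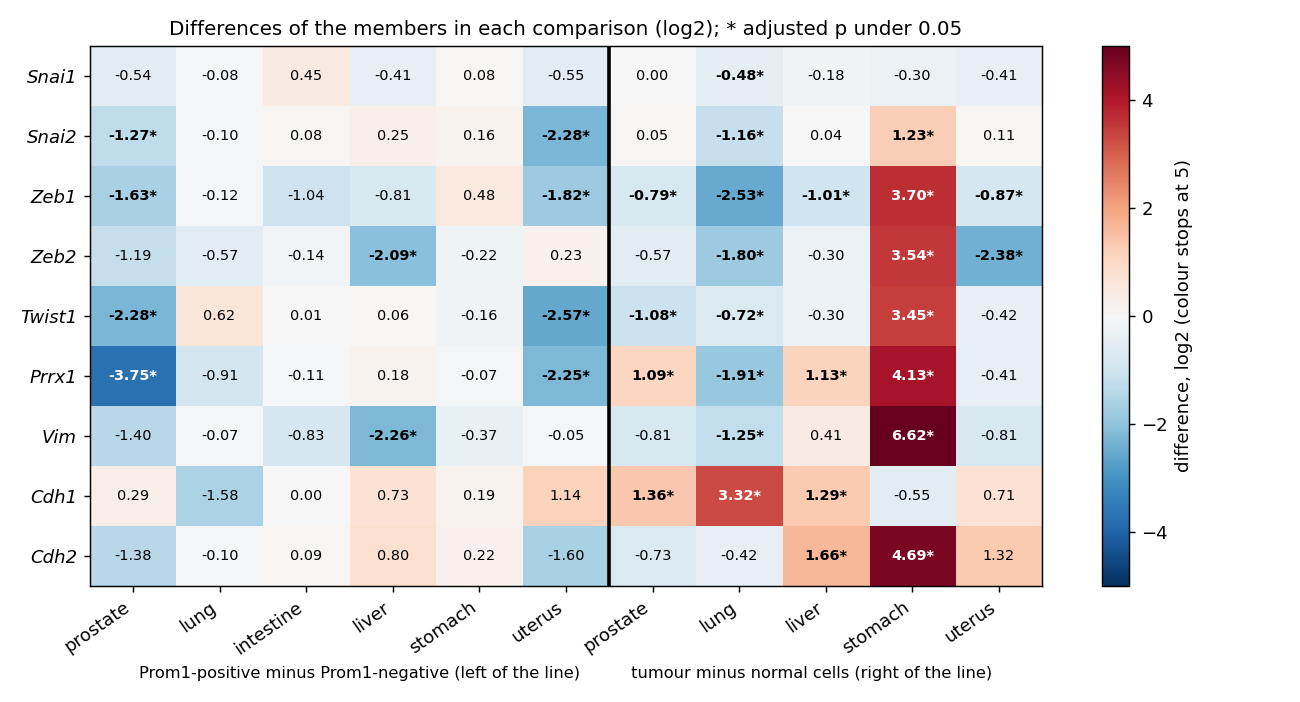
Differences of the 9 members (rows) in log2 signal, Prom1-positive minus Prom1-negative cells of 6 tissues left of the line and tumour minus normal cells of 5 organs right of it, with an asterisk at an adjusted p under 0.05. The stomach tumour column holds the largest positive differences (Vim 6.62), and prostate Prrx1 (-3.75) is the lowest value left of the line.

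Tumours were then set against the normal sorted cells of the same organ, the mean of both fractions, in 5 organs. The tumours were whole tissue and the normal samples were dissociated and sorted, so tumour state and handling cannot be told apart. Gastric adenocarcinomas had 7 members higher than normal stomach cells and none lower, against 35% of all genes called higher. The median member difference was 3.54, and that of all genes 0.11. Vim, the filament gene, was 10.90, 12.87 and 13.23 (lowest, median, highest of 11) in gastric tumours, against 6.59, 4.40 and 6.01 in Prom1-positive and 3.60, 7.36, 6.72 and 6.47 in Prom1-negative stomach cells. The lowest tumour was above the highest normal sample, a difference of 6.62 (SE 0.40, adjusted p = 3.21e-28).

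Cdh2 was 5.54, 7.0 and 9.25 in gastric tumours, against 2.59, 2.70 and 2.92 in Prom1-positive and 2.51, 2.78, 2.27 and 2.52 in Prom1-negative stomach cells. All normal samples lay under the array medians and all tumours above them, with a difference of 4.69 (SE 0.51, adjusted p = 1.21e-13). Prrx1 was 5.64, 6.93 and 8.65 in gastric tumours, against 3.0, 3.54 and 2.56 in Prom1-positive and 2.80, 4.20, 2.77 and 2.65 in Prom1-negative stomach cells. It too did not overlap (4.13, SE 0.40, adjusted p = 4.99e-16). Twist1 was 4.25, 6.32 and 7.53 in gastric tumours, against 2.75, 2.57 and 3.32 in Prom1-positive and 2.82, 4.15, 2.65 and 2.57 in Prom1-negative stomach cells. The lowest tumour was just above the highest normal sample, and the difference was 3.45 (SE 0.31, adjusted p = 8.64e-18).

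Both ZEB genes moved the same way in the stomach. Zeb1 was 7.05, 8.08 and 8.65 in gastric tumours, against 4.46, 4.75 and 4.07 in Prom1-positive and 3.87, 4.37, 3.19 and 4.39 in Prom1-negative stomach cells (3.7, SE 0.32, adjusted p = 4.95e-18). Zeb2 was 5.47, 6.80 and 8.65 in gastric tumours, against 3.81, 3.38 and 2.92 in Prom1-positive and 3.85, 3.61, 3.28 and 3.61 in Prom1-negative stomach cells (3.54, SE 0.36, adjusted p = 9.18e-15). Neither gene's tumours overlapped the normal samples. Snai2 was higher by 1.23 (SE 0.33, adjusted p = 0.000964) with overlap, and lost its call with each array's upper quartile as a covariate (0.91, adjusted p = 0.0838). Snai1 differed by -0.30 (adjusted p = 0.103).

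Cdh1 was not lower beyond its error while these 7 genes were higher. It was 8.45, 10.58 and 11.44 in gastric tumours, against 11.20, 10.83 and 11.20 in Prom1-positive and 10.95, 9.96, 11.52 and 11.11 in Prom1-negative stomach cells. Most tumours lay within the range of the normal samples, and the difference was -0.55 (95% interval -1.60 to 0.49, adjusted p = 0.373). Other probe sets of Prrx1 gave differences of 0.19 to 1.94 in the stomach, those of Zeb1 0.25 and 1.32, and those of Zeb2 1.21 to 3.22, so the size depends on the probe set for these genes. The second Cdh2 probe set gave 4.13 and the other Vim probe sets 5.26 and 6.70.

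Genes known to accompany the mesenchymal state moved in the same tumours. Of 15 mesenchymal effector genes all 15 were higher (median 4.62), with fibronectin, Fn1, higher by 6.70. Of 18 TGF-beta pathway genes 15 were higher and none lower (median 1.86), among them Ltbp1 (5.26), which holds latent TGF-beta in the matrix, and the induced matrix gene Tgfbi (5.18). Among 13 other transition factors 7 were higher and 1 lower, led by Prrx2 (3.99), Hmga2 (3.94) and Sox4 (3.14). Of 9 other cadherins 5 were higher and 2 lower, with intestinal Cdh17 higher by 5.19 and endothelial Cdh5 by 2.40. Of 14 genes that keep the epithelial state 9 were lower and none higher, among them Foxa1 (-2.42) and Grhl2 (-2.37). Epithelial adhesion genes went both ways, with 4 of 17 higher (Cldn4 by 3.17) and 7 lower (Prss8 by 2.84).

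Fibroblast markers were higher for 14 of 16 in these tumours (median 4.27) and macrophage markers for 14 of 14 (median 3.68). The fibroblast list was at 7.16 to 8.37 in gastric tumours, against 3.77 to 4.55 in Prom1-positive and 3.49 to 4.97 in Prom1-negative stomach cells. The macrophage list was at 6.61 to 9.13 in gastric tumours, against 4.75 to 5.14 in Prom1-positive and 3.22 to 4.33 in Prom1-negative stomach cells. The part of stromal and immune cells in the members' differences was not tested. The upper quartile was 6.43 to 6.51 in gastric tumours and 5.05 to 6.35 in the normal stomach samples, and the Gapdh 3' minus 5' difference 0.21 to 0.62 in gastric tumours and 0.60 to 2.17 in the normal samples. The same 7 members were called with the Gapdh difference as a covariate.

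In the lung the members moved the other way. Bronchial papillary adenomas had 8 members called, against 43.1% of all genes, with Cdh1 higher and 7 members lower. Cdh1 was 9.87, 10.44 and 10.91 (lowest, median, highest of 14) in adenomas, against 7.43, 6.18 and 5.36 in Prom1-positive and 7.04, 8.10 and 8.85 in Prom1-negative lung cells. Every adenoma was above every normal sample (3.32, SE 0.47, adjusted p = 3.81e-09). Zeb2 was 5.58, 6.73 and 7.71 in adenomas, against 8.70, 8.25 and 7.75 in Prom1-positive and 8.14, 8.76 and 9.40 in Prom1-negative lung cells, without overlap (-1.80, adjusted p = 1.82e-06). Vim was 10.46, 11.33 and 11.93 in adenomas, against 12.65, 12.48 and 12.23 in Prom1-positive and 12.40, 12.51 and 12.69 in Prom1-negative lung cells, also without overlap (-1.25, adjusted p = 0.00233).

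Zeb1 was 6.35, 6.88 and 8.45 in adenomas, against 10.57, 8.60 and 9.42 in Prom1-positive and 8.13, 9.88 and 10.16 in Prom1-negative lung cells. They overlapped in Prom1-negative sample 7, and the difference was -2.53 (adjusted p = 1.67e-12). Prrx1 was lower by 1.91 (adjusted p = 3.58e-06) and Snai2 by 1.16 (adjusted p = 0.000801). The Twist1 call (-0.72, adjusted p = 0.0259) ended without lung Prom1-positive sample 4 (-0.45, adjusted p = 0.256). It also ended with the Gapdh 3' minus 5' difference as a limma covariate (-0.59, adjusted p = 0.0849). The Snai1 call (-0.48, adjusted p = 0.00447) ended without Prom1-positive sample 1 (-0.33, adjusted p = 0.0813). Epithelial adhesion genes were higher for 15 of 17 (median 3.38), at 8.33 to 9.34 in adenomas, against 5.34 to 5.70 in Prom1-positive and 5.48 to 6.83 in Prom1-negative lung cells. The splicing factor Esrp1 was higher by 4.36 and Elf5 by 5.69. Fibroblast markers were lower for 13 and higher for none, at 5.18 to 6.23 in adenomas, against 6.32 to 7.56 in Prom1-positive and 7.25 to 8.66 in Prom1-negative lung cells. Their part in the members' differences was not tested.

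In the liver, 4 members were called against 47.2% of all genes. Cdh2 was 8.51, 8.85 and 9.69 (lowest, median, highest of 13) in hepatocellular carcinomas, against 3.39, 9.52, 8.87 and 8.89 in Prom1-positive and 3.22, 7.70 and 8.40 in Prom1-negative liver cells. The carcinomas were all above the Prom1-negative samples and overlapped the Prom1-positive ones (1.66, adjusted p = 0.00101). Cdh1 was 2.75, 9.36 and 10.53 in carcinomas, with the 2 lowest at 2.75 and 5.68, against 4.16 to 9.71 in the normal samples (1.29, adjusted p = 0.0137). Without liver Prom1-positive sample 2 these were 0.94 for Cdh2 (adjusted p = 0.0525) and 0.75 for Cdh1 (adjusted p = 0.176). Prrx1 was higher by 1.13 (adjusted p = 0.00394) and Zeb1 lower by 1.01 (adjusted p = 0.00161). Prrx1 was at 2.21 to 3.19 in the normal liver samples, all below their array medians. It was at 2.89 to 6.07 in the carcinomas, with 7 of 13 above their array medians. With the Gapdh 3' minus 5' difference as a covariate, the Cdh1 (1.0, adjusted p = 0.128) and Zeb1 (-0.73, adjusted p = 0.0623) calls ended.

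In the prostate, 4 members were called against 36.7% of all genes. Cdh1 was 10.43, 10.73 and 11.06 (lowest, median, highest of 10) in prostatic adenocarcinomas, against 9.47, 9.31 and 9.71 in Prom1-positive and 9.68, 9.41, 9.11, 8.84 and 8.98 in Prom1-negative prostate cells. All tumours were above all normal samples (1.36, adjusted p = 0.0321), although the call ended without Prom1-positive sample 1 or sample 2 (adjusted p of 0.0594 and 0.0643). Prrx1 was higher by 1.09 against the mean of both fractions (adjusted p = 0.0221) but lower by 0.78 when set against Prom1-negative cells alone, and the call ended without Prom1-positive sample 3 (0.85, adjusted p = 0.115), Prom1-negative sample 1 or adenocarcinoma 9 (adjusted p of 0.0533 and 0.0531). With the mean of its probe sets the Prrx1 difference was 0.048. Twist1 was lower by 1.08 (adjusted p = 0.00284) and stood 0.061 above Prom1-positive cells alone. Zeb1 was lower by 0.79 (adjusted p = 0.045), stood 0.029 above Prom1-positive cells alone, and was -0.30 (adjusted p = 0.525) without Prom1-positive sample 1. Its call also ended without any 1 of Prom1-negative samples 2 to 5 or adenocarcinomas 2, 3, 5, 8 and 10 (adjusted p of 0.0508 to 0.083). With the Gapdh 3' minus 5' difference as a covariate the Cdh1 (1.21, adjusted p = 0.0771) and Zeb1 (-0.64, adjusted p = 0.134) calls ended. Epithelial adhesion genes were higher for 8 of 17 and lower for none, at 9.77 to 10.16 in tumours, against 9.23 to 9.47 in Prom1-positive and 8.27 to 9.15 in Prom1-negative cells. Smooth muscle markers were higher for 7 of 8, at 6.24 to 8.83 in tumours, against 4.75 to 4.88 in Prom1-positive and 4.48 to 6.76 in Prom1-negative cells. Their part in the members' differences was not tested.

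In the uterus Zeb2 and Zeb1 were lower, 2 members against 12.4% of all genes called lower. Zeb2 was 4.92, 6.42 and 7.85 (lowest, median, highest of 9) in uterine adenocarcinomas, against 8.70, 8.70, 8.84 and 9.02 in Prom1-positive and 8.26, 8.29 and 9.22 in Prom1-negative uterus cells. The tumours were all below the normal samples (-2.38, SE 0.38, adjusted p = 2.32e-07). Zeb1 differed by -0.87 (adjusted p = 0.0409), stood 0.041 above Prom1-positive cells alone, and lost its call without any 1 of uterine adenocarcinomas 2, 3, 6 and 8, Prom1-positive samples 2 to 4 and Prom1-negative samples 1 and 2 (adjusted p of 0.0557 to 0.116). It was -0.73 (adjusted p = 0.108) without the 5 tumours with unlike markers and -0.38 (adjusted p = 0.59) without the 9. With the Gapdh 3' minus 5' difference as a limma covariate, Zeb1 was -0.60 (adjusted p = 0.236). Cdh2 was 2.59 to 7.66 in the tumours and differed by 1.32 (adjusted p = 0.0509). It was called in 23 fits that left out 1 sample (1.32 to 1.63, adjusted p of 0.0141 to 0.0499). It was also called without the 9 tumours (1.97, adjusted p = 0.00921) and with the Gapdh covariate (1.56, adjusted p = 0.0373). Without the 5 tumours it was not called (1.09, adjusted p = 0.128).

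Over the mean of 5 organs 6 members were called against 65.8% of all genes. Cdh2 (1.30), Cdh1 (1.23), Vim (0.83) and Prrx1 (0.80) were higher and Zeb1 (-0.30) and Snai1 (-0.27) lower. The difference between tumour and normal cells varied among organs for 8 members, all but Snai1, against 77.9% of all genes. Vim, Zeb1, Zeb2, Twist1 and Prrx1 had their highest tumour difference in the stomach and a negative one in the lung. The Zeb1 call (adjusted p = 0.0497) ended in 70 of the fits that left out 1 sample, with values of -0.31 to -0.20, and without the 5 tumours with unlike markers (-0.28, adjusted p = 0.0722) or the 9 (-0.22, adjusted p = 0.173). Zeb2 was called without the 9 (-0.36, adjusted p = 0.0428). With the Gapdh 3' minus 5' difference as a limma covariate, Zeb1 was -0.072 (adjusted p = 0.785) and not called. Zeb2 (-0.49, adjusted p = 0.0467) and Twist1 (0.41, adjusted p = 0.0472) were called with it.

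**Figure D3:**
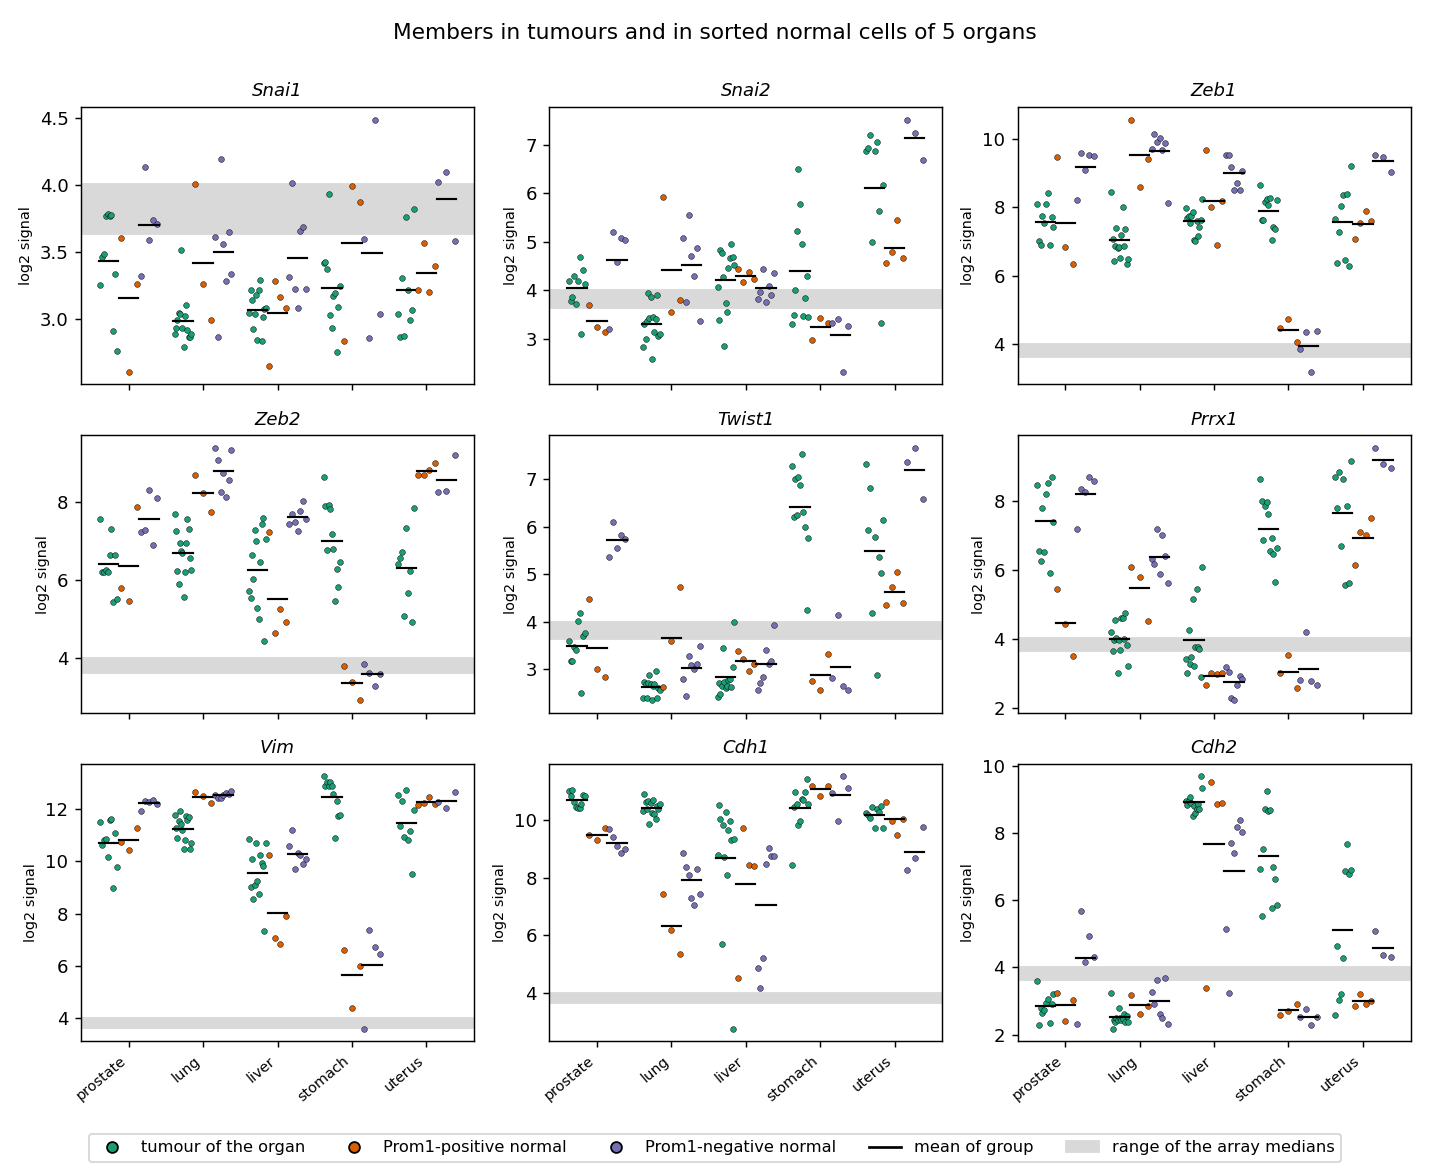
Log2 signal (vertical axes) of each member in tumours, Prom1-positive and Prom1-negative normal cells of 5 organs (horizontal axis), 1 point for each sample, with group means as bars and the range of the array medians in grey. Stomach tumours lie above both normal fractions for Zeb1, Zeb2, Twist1, Prrx1, Vim and Cdh2, while Cdh1 overlaps there and is separated in lung.

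Among the 7 tumour types all 9 members differed, against 95.1% of all genes. Cdh1 was 2.76, 3.15 and 3.17 in the B-cell lymphomas, below the array medians. Its means were 10.17 to 10.71 in prostatic, bronchial, gastric, skin and uterine tumours, whose neighbours in order did not differ, and 8.69 ± 2.18 (SD, n = 13) in hepatocellular carcinomas. The lymphomas stood 7.11 below the mean of the other 6 types. The epithelial adhesion list was at 3.95 to 4.18 in the lymphomas.

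Zeb2 had its highest signals in the lymphomas, at 8.87, 8.60 and 7.93, and its lowest in skin tumours, at 4.64, 5.08 and 5.60 (lowest, median, highest of 6). Snai2, a gene of basal keratinocytes, was highest in skin squamous cell carcinomas, at 7.0, 7.28 and 7.79, followed by uterine adenocarcinomas at 3.33, 6.86 and 7.20 (lowest, median, highest of 9). The skin tumours varied little and the uterine ones widely. The basal keratin Krt5 was at 12.09 to 12.88 in skin tumours and 5.76 to 12.51 in uterine tumours, and its part in the Snai2 signals was not tested. In the other 5 types the Snai2 means lay between 3.06 and 4.39.

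Mean Cdh2 was highest in hepatocellular carcinomas (8.92 ± 0.31, SD, n = 13). Gastric (7.32 ± 1.33, SD, n = 11) and uterine adenocarcinomas (5.11 ± 1.96, SD, n = 9) followed, each mean differing from the next. Single tumours overlapped, at 8.51 to 9.69, 5.54 to 9.25 and 2.59 to 7.66 in that order. The other 4 types averaged 2.52 to 3.49. Twist1 was highest in gastric adenocarcinomas (6.42 ± 0.91, SD, n = 11), followed by uterine (5.50) and skin (4.64) tumours, which did not differ, and lay between 2.63 and 3.50 in the others. Prrx1 was between 6.89 and 7.65 in uterine, prostatic, gastric and skin tumours and between 3.96 and 4.94 in lymphomas, bronchial adenomas and hepatocellular carcinomas. Vim was highest in gastric (12.47) and lowest in hepatocellular tumours (9.56). Zeb1 averaged 6.53 in skin and 7.89 in gastric tumours, the ends of an order in which no neighbours differed.

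Set against the mean of the other 6 types, gastric adenocarcinomas had 6 members higher and none lower, against 23.8% of all genes called higher. These were Cdh2 (3.04), Twist1 (2.77), Vim (1.58), Cdh1 (1.53), Prrx1 (1.39) and Zeb1 (0.59), the last not called without the 5 tumours with unlike markers (0.50, adjusted p = 0.0588) or the 9 (0.46, adjusted p = 0.0812). Hepatocellular carcinomas had Cdh2 higher (4.91) and Prrx1 (-2.39), Vim (-1.81) and Twist1 (-1.40) lower, 4 members against 66.3% of all genes. Skin tumours had 6 members called (41.7% of all genes): Snai2 (3.14), Cdh1 (1.44) and Prrx1 (1.03) higher and Cdh2 (-2.26), Zeb2 (-1.80) and Zeb1 (-1.0) lower. The Prrx1 call in skin ended without skin sample 3, 4 or 6 (0.83 to 0.88, adjusted p of 0.111 to 0.125) and without the lymphomas (0.84).

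Bronchial adenomas had Cdh1 higher (1.53) and Cdh2 (-2.56), Prrx1 (-2.34), Twist1 (-1.65) and Snai2 (-1.54) lower, against 58.1% of all genes. Uterine tumours had 4 members higher, against 17.3% called higher, namely Prrx1 (1.91), Snai2 (1.72), Twist1 (1.70) and Cdh1 (1.23). Without the 9 tumours with unlike markers, Cdh1 lost its call there (1.16, adjusted p = 0.0937) and Cdh2 gained one (1.09, adjusted p = 0.0292). Prostatic tumours had Cdh1 (1.86), Prrx1 (1.66) and Snai1 (0.34) higher and Cdh2 (-2.17), Snai2 (-0.70) and Twist1 (-0.63) lower, against 41.8%. The last 2 ended without single prostatic tumours (adjusted p up to 0.0814 for Snai2, without sample 5 or 8, and 0.103 for Twist1, without sample 2, 3, 4, 5 or 8). Lymphomas had Zeb2 higher (2.17) and Cdh1, Snai2 (-1.84), Twist1 (-1.49) and Cdh2 (-1.42) lower, against 46.6%, the Cdh2 call ending without lymphoma 1 (-1.10, adjusted p = 0.206) or 3 (-1.23, adjusted p = 0.148). The Cdh1 calls of 5 types rested on the lymphomas. Without them Cdh1 differed by 0.70 in prostatic (adjusted p = 0.124), 0.36 in bronchial (0.336), 0.35 in gastric (0.424), 0.26 in skin (0.671) and 0.05 in uterine tumours (0.93), and was lower by 1.72 in hepatocellular carcinomas (adjusted p = 7.5e-06).

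**Figure D4:**
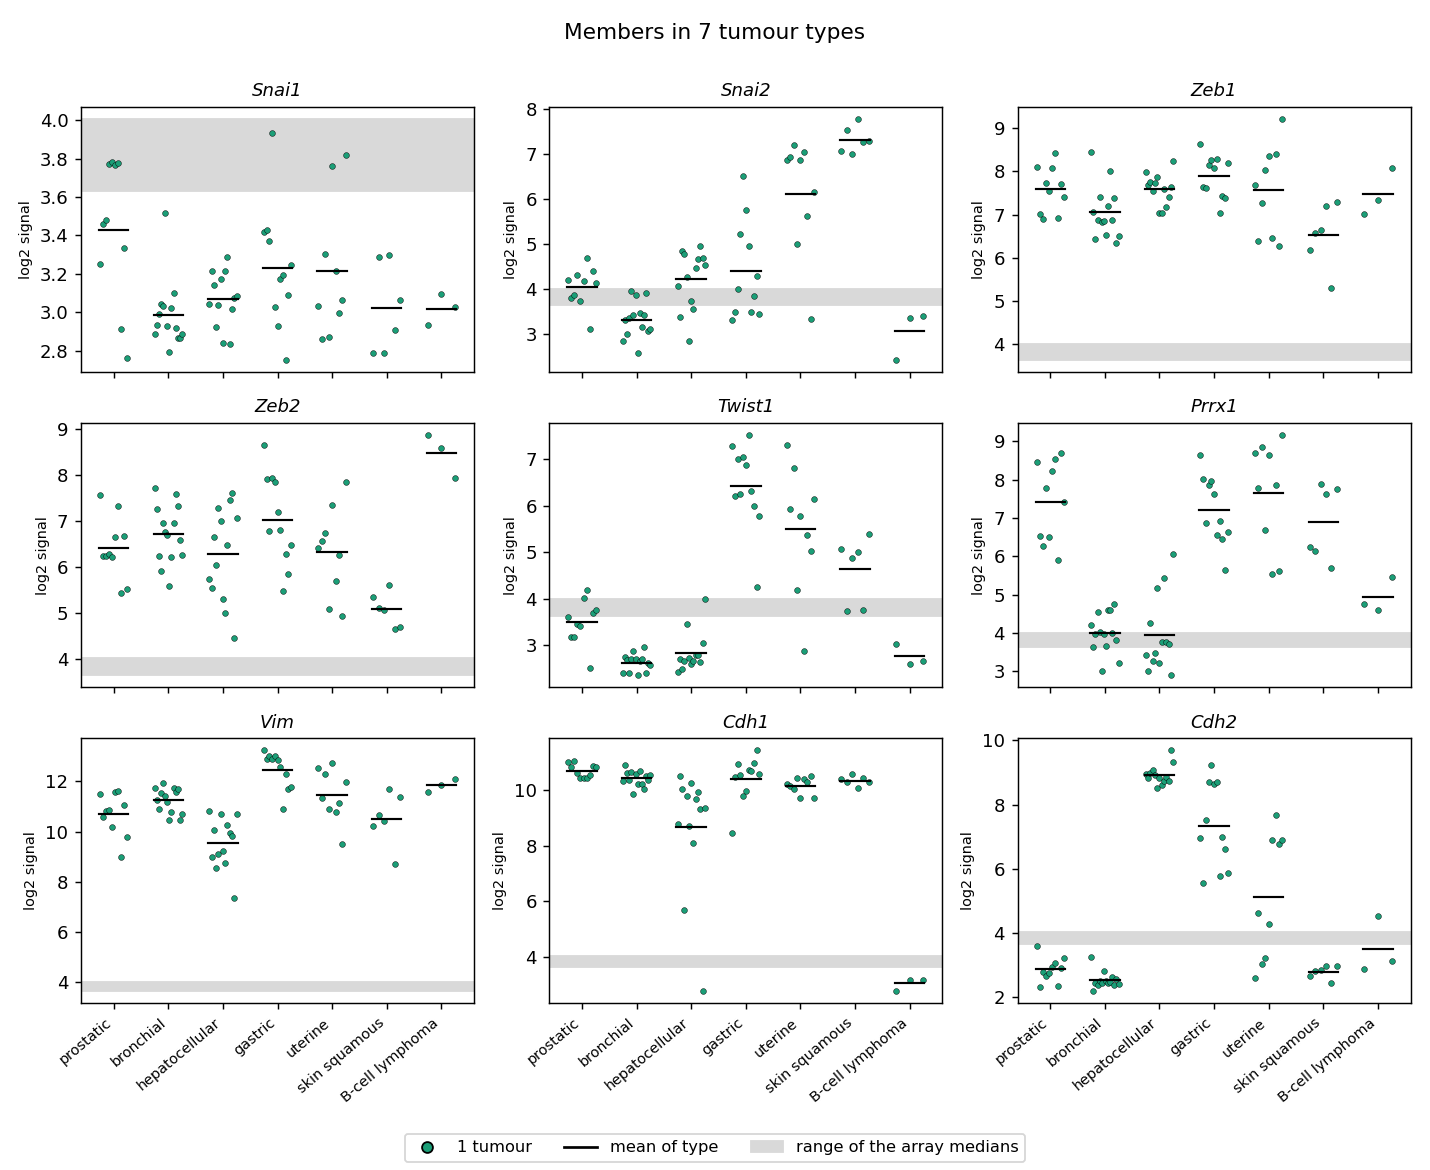
Log2 signal (vertical axes) of each member in 7 tumour types (horizontal axis), 1 point for each tumour, with type means as bars and the range of the array medians in grey. The 3 lymphomas lie below the grey band for Cdh1, hepatocellular carcinomas are highest for Cdh2, and skin tumours are highest for Snai2.

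Within a tumour type, Cdh1 was compared with each of the other 8 members over the tumours of the 6 types with 6 or more samples, 48 pairs in all. After adjustment 2 pairs passed, and 11 had an unadjusted p under 0.05. In 9 uterine adenocarcinomas the Pearson correlation of Cdh1 with Zeb2 was -0.95 (exact permutation p = 0.00003, adjusted p = 0.00146). Spearman's rho was -1.0 (adjusted p = 0.000265), and r without the 2 tumours farthest from the median was -0.96. The 2 tumours with the lowest Cdh1, 9.71 and 9.73, had Zeb2 at 7.85 and 7.35, and the 2 with the highest, 10.46 and 10.50, had 5.08 and 4.92. In 11 gastric adenocarcinomas Cdh1 and Prrx1 gave r = -0.84 (permutation p = 0.00038, adjusted p = 0.00912) and rho = -0.91 (adjusted p = 0.00648), with r = -0.73 without the 2 farthest tumours. The tumour with the lowest Cdh1, 8.45, had Prrx1 at 8.65, and the one with the highest, 11.44, had 5.64. The former is gastric adenocarcinoma 1, among the 5 tumours with unlike markers. Without the 5 tumours with unlike markers, r was -0.95 in 8 uterine and -0.87 in 9 gastric tumours, and neither passed after adjustment (exact permutation, adjusted p = 0.0606 for each). Both passed by Spearman's rho, -1.0 (adjusted exact permutation p = 0.00238) and -0.90 (adjusted exact permutation p = 0.0487). Without all 9, too few uterine tumours are left for a correlation.

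Some marker lists moved with these pairs, over 20 relations computed after the pairs had been seen. In uterine tumours the epithelial adhesion list, which does not hold Cdh1, gave r = 0.95 with Cdh1 (adjusted permutation p = 0.00402) and -0.92 with Zeb2 (adjusted permutation p = 0.00945). The endothelial list gave -0.79 with Cdh1 and 0.82 with Zeb2, and the fibroblast list -0.73 and 0.78. By Spearman's rho neither list passed (adjusted permutation p = 0.0535 for endothelial and 0.114 for fibroblast), and the fibroblast r with Zeb2 was 0.38 without the 2 farthest tumours. In gastric tumours the fibroblast list gave -0.73 with Cdh1 (adjusted permutation p = 0.0199) and 0.80 with Prrx1 (adjusted permutation p = 0.0186). The macrophage list gave 0.79 with Prrx1 (adjusted permutation p = 0.0186) and -0.62 with Cdh1 (adjusted permutation p = 0.0668). The endothelial list had the opposite signs to those in uterine tumours, 0.58 with Cdh1 and -0.44 with Prrx1. Neither passed (adjusted permutation p = 0.0785 and 0.233). The macrophage list in uterine tumours (-0.57 with Cdh1, 0.47 with Zeb2) did not pass, nor did the smooth muscle list in either type (r of -0.38 to 0.21). The share of epithelial and stromal tissue in each piece, and its part in the 2 pairs, was not tested.

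**Figure D5:**
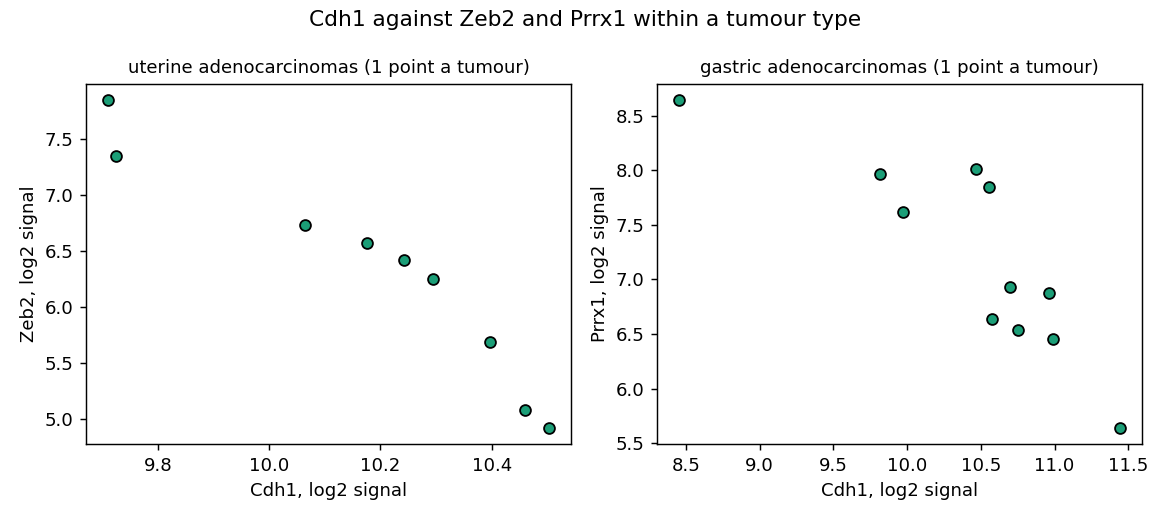
Log2 signal of Cdh1 (horizontal axes) against Zeb2 in 9 uterine adenocarcinomas (left) and Prrx1 in 11 gastric adenocarcinomas (right), 1 point for each tumour. Zeb2 and Prrx1 are lower where Cdh1 is higher, with r of -0.95 and -0.84.

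Across the 19 group means the members' patterns were alike in part, given here as a description. Zeb2 and Vim had a Pearson correlation of 0.92, Zeb1 and Zeb2 of 0.89, Zeb1 and Vim of 0.85, Twist1 and Prrx1 of 0.76 and Snai2 and Twist1 of 0.74. Within groups over 117 samples the same pairs gave 0.62, 0.35, 0.50, 0.53 and 0.22. Cdh1 gave -0.58 with Zeb2 and -0.51 with Zeb1 over the group means, and 0.01 and -0.23 within groups. The points share arrays, and their groups differ in tissue and handling.

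The genes most like each member over the 19 group means were found among all genes tested. The genes nearest to Vim were Wnk1 (0.97), Emp3 (0.96) and Timp2 (0.96), and those nearest to Cdh1 were Dsp (0.92), a desmosome gene, Ank3 (0.91) and Sh3bgrl2 (0.91). For Zeb1 they were Dennd5a (0.95), Zcchc24 (0.94) and Cmtm3 (0.94), and for Zeb2 Olfm1 (0.95), Ap1s2 (0.95) and Vsir (0.94). For Twist1 they were Prrx2 (0.93), Gpr161 (0.93) and Obsl1 (0.92), and for Prrx1 Spsb1 (0.91), Mmp23 (0.90) and the matrix proteoglycan gene Vcan (0.89). Snai2 was nearest to Pcdhb21 (0.89), Pcdhb17 (0.88) and Rgma (0.88). Cdh2 was nearest to the liver genes Tfr2 (0.92) and Igfbp1 (0.90) and to Rbpms2 (0.90). Snai1 was nearest to Armcx1 (0.86), Ssc5d (0.79) and Cdkn1c (0.79).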

How the data were processed

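The values are log2 signals that the authors deposited as values of the whole series; per the submitters' processing notes they were made with RMA and Partek 6.6, and the genome build and any batch correction are not given in the sources used here. Of 45141 probe sets, 28898 are annotated to 1 gene and 551 to several. Each gene was read from its brightest probe set on average (117 arrays), and genes above the array median in at least 3 arrays entered a fit: 14081 genes for 51 sorted samples, 14663 for all 117 and 13456 for 66 tumours. The number of arrays limits the precision, and values span 1.63 to 14.2.

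Differences were fitted with limma 3.58.1 (lmFit and eBayes, R 4.3.3, with version 1.17.8 of the data.table package), two-sided, adjusted by Benjamini-Hochberg over all genes in the fit, with a threshold of 0.05. The sorted fit had 12 groups, the tumour against normal fit 19 groups. In each fit the estimate of spread for a gene was shared by all groups, so a test within a tissue also rests on the spread in other groups. Correlations used permutation tests in Python 3.11 with numpy 2.4.6 and scipy 1.17.1, exact under 10 samples and 100000 resamples otherwise, and figures used matplotlib 3.10.9. The fits were tested on simulated data with 200 genes changed by 1: 93.5% were recovered for the mean of 6 tissues, 23% for prostate, 31.5% for liver and 11% for stomach fractions, 57.5% for stomach tumours and 86.5% for gastric tumours against other types.

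The members and lists were chosen with earlier results of these data known. All members were named in every comparison, with up to 4 called genes of largest difference from each list. The 3 genes most correlated with each member were named too, passing over predicted and clone-named genes. Counts of list genes are out of those that entered the fit. Alternatives covered the probe set rule, normalization, filter, array weights, covariates, reference fraction, blocks and leaving out each sample. Sequences came from the RefSeq promoter windows, with no window of Cdh1, Snai2, Zeb1 or Cdh2 used here.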

Additional observations from a re-analysis of the deposited data

Results flagged for a closer look

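Dixon's ratio of gap to range was taken for each member in each group of 4 to 10 samples, 90 sets of values in all. In 6 sets a sample lay far from the others, where chance gives 5% of sets, or 4.5. The sets of 1 group share arrays. Liver Prom1-positive sample 2 had Cdh2 at 3.39, against 8.87 to 9.52 in the other 3 (ratio 0.894), and Prrx1 at 2.66, against 2.98 to 3.02 (ratio 0.896). In stomach Prom1-negative cells 1 sample had Twist1 at 4.15, against 2.57 to 2.82 (ratio 0.843), and Prrx1 at 4.20, against 2.65 to 2.80 (ratio 0.902); its array is among the 6 with an upper quartile under 6. Another stomach Prom1-negative sample had Snai2 at 2.32, against 3.26 to 3.40 (ratio 0.87). Lung Prom1-negative sample 7 had Zeb1 at 8.13, against 9.68 to 10.16 in the other 6 (ratio 0.766).

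The difference between Prom1-positive and Prom1-negative cells varied among the 6 tissues, by limma's F test of the interaction, for Twist1 (adjusted p = 2.31e-06), Prrx1 (3.06e-06), Snai2 (0.00231) and Zeb2 (0.0226). The difference between tumours and normal cells varied among the 5 organs for Vim (adjusted p = 4.39e-26), Zeb1 (1.21e-22), Zeb2 (8.33e-19), Twist1 (1.39e-17), Prrx1 (9.71e-17), Cdh2 (1.08e-10), Cdh1 (3.35e-05) and Snai2 (9.18e-05).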

How the results depend on the processing

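Of the values of the members and Prom1 under the alternatives, 98.1% stayed on their side of the threshold and 1.08% lost a call. Another 0.763% gained one, and 8 called values changed sign. A further 0.795% changed sign without a call on either side. Most values come from fits without 1 sample, often of a group outside the comparison, which leaves the estimate as it was. The high share is therefore largely built in and does not measure stability. The 8 called values that changed sign all came from the choice of normal fraction. With Prom1-positive cells alone, Zeb1 in tumours minus normal cells was 0.090 over the mean of 5 organs, 0.029 in prostate and 0.041 in uterus, Twist1 was 0.061 in prostate tumours and 0.30 in normal lung against other tissues, and Prrx1 was -0.36 in normal prostate against other tissues. With Prom1-negative cells alone, Prrx1 was -0.78 in prostate tumours and -0.0080 in normal intestine against other tissues.

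Counts of called members moved as follows. The share of all genes called under each alternative is not given here. The counts here and in the next paragraph are therefore not results about the members. Between fractions, array weights gave 8 in prostate (4), 7 in uterus (4) and 9 for the interaction (4), with the main count in parentheses. Without the arrays of low upper quartile, liver gave 4 (2). Leaving out single samples gave 2 to 5 in liver, 2 to 5 in prostate and 3 to 7 for the interaction. Against other tissues, Prom1-positive cells alone gave 1 in prostate (5) and 5 in stomach (8). For liver tumours (4) the counts were 2 with Gapdh as covariate, 1 against Prom1-positive cells, 1 without the low arrays and 2 to 4 without single samples. For prostate tumours (4) they were 2 with Gapdh, 2 with the upper quartile as covariate, 1 against Prom1-positive cells and 2 to 4 without single samples. For uterus tumours (2) they were 5 against Prom1-negative cells, 4 with array weights, 4 without the low arrays, 1 with sample code, 1 without 5 tumours with unlike organ markers (chosen after seeing the data) and 1 to 4 without single samples. The prostatic type gave 3 to 6 (6) without single samples. Cdh1 pairs (2) were 7 with probe set means, 6 with quantile normalization, 1 without the 2 farthest samples and 0 without those 5 tumours, where both pairs passed by Spearman's rho (11 of 48 pairs had an unadjusted p under 0.05 with all tumours, by the same permutation tests). The cause was not tested.

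Title numbers did not pair the samples: 7 of 19 same-numbered pairs correlated above 0.1 (range -0.343 to 0.587). With the number as a replicate block the count was 2 in prostate, 3 in uterus, 2 in liver, 4 for the interaction and 5 for the mean of 6 tissues. With neighbouring sample codes as a block, Zeb2 (adjusted p = 0.06) and Vim (0.0807) lost the call over the mean of 6 tissues. Signals near the array median limit Snai1, Twist1 and Cdh2, and Prrx1 in liver.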

Other observations

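Gene groups around the members also moved where the members were less in view. In hepatocellular carcinomas set against normal liver cells, 12 of 17 measured epithelial adhesion genes were higher and none lower. Of 15 measured endothelial markers 14 were lower and none higher. In that comparison 47.2% of all genes were called in either direction. In bronchial adenomas 13 of 15 measured endothelial markers were lower and 1 higher. All 14 measured T and NK cell markers were lower there than in normal lung cells, against 43.1% of all genes called in either direction. In Prom1-positive liver cells 12 of 14 measured T and NK cell markers were lower and none higher, against 16.5% of all genes called lower. The B cell genes Ms4a1 (-3.59, limma adjusted p = 0.000416) and Cd22 (-2.71, limma adjusted p = 5.73e-05) were among the lower genes. The catenins, which tie cadherins to the cytoskeleton, had 0 of 10 called between fractions over the mean of 6 tissues, where 8.56% of all genes were called lower. In gastric tumours 5 of 10 were higher and 2 lower, where 35% of all genes were called higher.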
